A study of Mus musculus with 15 samples.

Results

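Nephron progenitors sorted from the mouse kidney on P1 (postnatal day 1) were compared with those sorted on P0, across all genes on the array. The comparison used 6 of the 15 samples of the series, 3 for each day, and the other 9 samples entered the fit to estimate the spread. All 15 samples came from CD-1 mice that carry the transgene Tg(Crym-EGFP)82Gsat, so no sample lacks the reporter. In this bacterial artificial chromosome transgene the regulatory sequence of Crym, which encodes mu-crystallin, drives green fluorescent protein, and the sorted cells are those in which this sequence is active. Pups were moved to CD-1 foster mothers shortly before term, kidneys were dissociated with trypsin, and about 4 kidneys went into each sample. The samples of P0, P1, P2 and P3 are labelled cap mesenchyme and those of P4 renal vesicle. The labels give the sex as unknown and no sorting gate, and they do not say whether the pools of 1 day stem from different litters. The p-values therefore describe the spread among these pools, which may be technical.

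Cap mesenchyme is the layer of self-renewing progenitors around each tip of the branching ureteric bud, and every nephron derives from it. In the mouse this layer is used up in the first days after birth, when its remaining cells form renal vesicles and then nephrons. Progenitors must divide to keep their number, and dividing cells make the transcripts of DNA replication and of histones in S phase and those of mitosis in G2 and M phase. Progenitors before birth are known to rely on glycolysis, and several glycolytic genes are also induced when oxygen is low.

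The values are log2 signals of probe sets on whole-transcript arrays, with medians between 6.80 and 6.92 in the 15 samples. The replicate numbered 1 of each day had a narrower spread of values than the others, with an interquartile range of 2.14 to 2.27 against 2.52 to 2.77. Each comparison was therefore made within replicate numbers, as the mean of the 3 differences between same-numbered samples. Xist, the RNA of the inactive X chromosome, was at 5.24 in replicate 1 of P0 and at 5.27 in replicate 2 of P1, and between 10.56 and 10.78 in the other 4 samples, so 1 pool in each group differed from the others in its share of female cells. Markers of the labelled cell type were bright. Crym measured 11.70, 11.87 and 12.15 at P0 and 11.36, 11.79 and 11.56 at P1, the progenitor regulator Six2 averaged 11.00 ± 0.25 (SD, n = 3) at P0 and 10.89 ± 0.25 at P1, and 32 of the 35 progenitor genes listed were above the filter on low values. Defining markers of endothelial cells (Pecam1, Kdr, Cdh5) and of leukocytes (Ptprc, Csf1r, Adgre1) were below the median of all values, log2 6.86, in all 6 samples. Other listed markers were above the filter on low values, 3 of 13 endothelial and 4 of 15 leukocyte genes. Of 20 stromal genes 18 were, and the list averaged 7.99 to 8.0 in the P0 pools and 7.78 to 7.95 in the P1 pools. The purity of the pools was not tested.

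Between P0 and P1, 20 of 11885 genes passed the threshold of 0.05 on the adjusted p, which is 0.168% of the genes tested. Of these, 19 fell (0.16% of genes) and 1 rose (0.00841%). Of the 20 genes, 7 belong to a list of 106 genes of mitosis and cytokinesis, 4 are replication-dependent histone genes, 3 are glycolytic enzymes and 2 are genes known to respond to hypoxia. Of the remaining 4, Cd68 is in the leukocyte list and Arrdc3, Knstrn and Abi3bp are in none of the 42 lists examined. The changes were 1.57-fold to 3.38-fold. All 20 genes moved the same way in the 3 same-numbered pairs, and in 17 of them the P0 and P1 values did not overlap. Over all genes, 2.78% had their 3 P1 values below their 3 P0 values and 2.08% had them above.

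**Figure D1:**
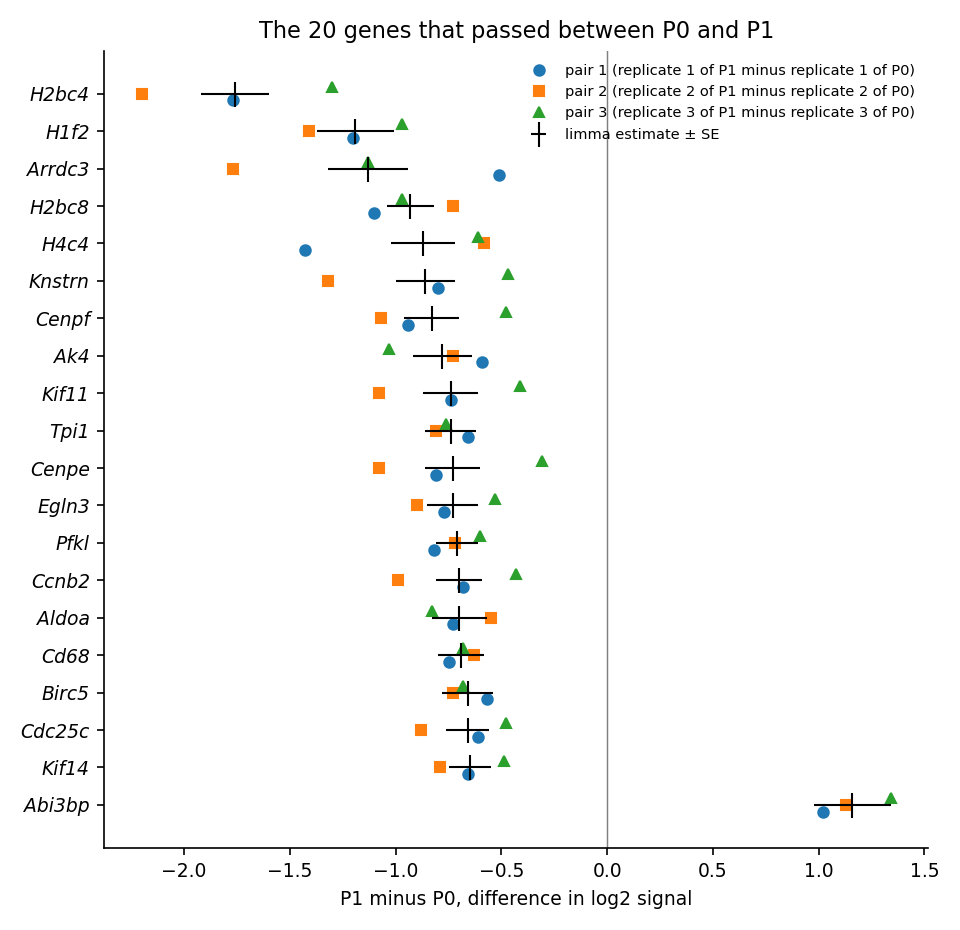
Differences in log2 signal between P1 and P0 (x axis) for the 20 genes that passed, with a coloured symbol for each same-numbered pair of samples and a black bar for the limma estimate with its standard error. The symbols of all 19 genes that fell lie left of 0 and those of Abi3bp lie right of it, and H2bc4 stands lowest, between -2.20 and -1.30.

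These calls depend on how the samples are matched and on single libraries. Without the replicate block 0 genes passed, and the lowest adjusted p was 0.109. Of the 11885 genes, 238 then had an unadjusted p under 0.05, against 593 with the block. Where no gene changes, a share of 0.05 of the genes is expected below this threshold. When 1 library was left out, 4 genes fell without replicate 1 of P0, 2 without replicate 2 of P0, 5 without replicate 3 of P0, 1 without replicate 1 of P1, 2 without replicate 2 of P1 and 49 without replicate 3 of P1. H2bc4 was the only gene of the 20 that passed in all 6 of these fits. When the fit was confined to the 12 cap mesenchyme samples, 2 genes fell and 0 rose, and with the 6 samples of P0 and P1 alone, 2 fell and 1 rose.

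The largest fall was that of a histone gene. H2bc4, which encodes a core histone H2B, measured 8.10, 9.36 and 8.42 at P0 and 6.33, 7.16 and 7.12 at P1. It fell by 1.76 on the log2 scale (SE 0.16, 3.38-fold, adjusted p = 3.7e-04), and its highest P1 value was below its lowest P0 value. H1f2, a linker histone gene, measured 10.14, 10.58 and 10.42 at P0 and 8.94, 9.17 and 9.45 at P1. It fell 2.29-fold (log2 -1.19, SE 0.18, adjusted p = 0.0203) with no overlap, and it lost the call without replicate 2 or 3 of P0 or replicate 1 or 2 of P1 (adjusted p up to 0.145). H2bc8, another H2B gene, fell 1.91-fold (adjusted p = 0.003) from values between 7.25 and 7.57 to values between 6.14 and 6.84, and lost the call without replicate 1 of P1 (adjusted p = 0.0505). H4c4, which encodes histone H4, fell 1.83-fold (adjusted p = 0.0263) and differed most in pair 1, by -1.43, against -0.58 and -0.61 in the other pairs. Its replicates 1 were low on both days, 10.30 at P0 and 8.87 at P1, so the groups overlapped although every pair differed in the same direction, and the call was lost without any library except replicate 3 of P1 (adjusted p up to 0.191).

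Replication-dependent histone genes are transcribed mainly in S phase and their transcripts decay when DNA synthesis stops. Of 29 such genes with a probe set of their own, 22 were above the filter on low values. Apart from the 4 that fell, none passed, but 10 of the 22 were lower at an unadjusted p under 0.05 (3.29% of all genes were) and 21 had a log2 difference below 0 (50.3% of all genes had). Their median difference was -0.38, beside 0.00 over all genes, and it was -0.31, -0.54 and -0.26 in the 3 pairs. Without single libraries the median stayed between -0.51 and -0.29, and the members that fell numbered 1 without replicate 1 of P1 and 2 without replicate 2 of P1, replicate 2 of P0 or replicate 3 of P0. Histone genes are near-identical copies of each other, so a probe set can bind transcripts of several, and the values of single members are uncertain.

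Genes of mitosis and cytokinesis were the most numerous among those that fell. Of 102 members above the filter on low values, 7 fell and none rose. In all, 75 of the 102 were lower at an unadjusted p under 0.05 (3.29% of all genes were) and 98 had a difference below 0 (50.3%). In all 3 pairs, 75 were lower (12.1% of all genes were). In 48, every P1 value was below every P0 value (2.78% of all genes). The median difference was -0.42, and it was -0.45, -0.69 and -0.18 in pairs 1, 2 and 3. Leaving out single libraries moved the median between -0.52 and -0.34. The members that fell numbered 29 without replicate 3 of P1, 2 without replicate 3 of P0 and 0 without any other library. In pools of sorted cells, fewer dividing cells and less of these transcripts per cell cannot be told apart.

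**Figure D2:**
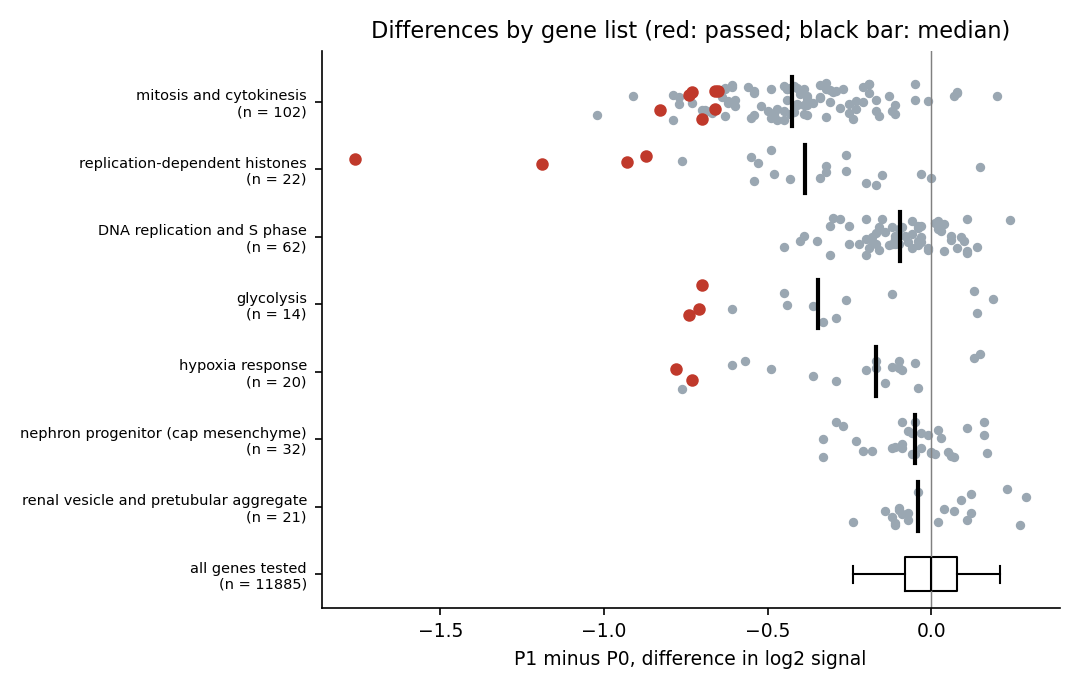
Differences in log2 signal between P1 and P0 (x axis) for the members of 7 gene lists, 1 point per gene, with genes that passed in red and the list median as a black bar. The box for all 11885 genes spans the quartiles and its whiskers the 5th to 95th percentiles, and the medians of mitosis genes (-0.42), histones (-0.38) and glycolysis genes (-0.34) lie below that of the 2 nephron lists (-0.05 and -0.04).

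Many genes that act in mitosis share short promoter motifs, the cell cycle homology region, which binds repressor and activator complexes that restrict transcription to G2 and M phase, and the CCAAT box, which binds NF-Y. The first was searched as TTTGAA or TTCGAA and the second as CCAAT, each on both strands, in the 250 bases before the transcription start of RefSeq promoters (GRCm38.p6). Promoters were found for 85 of the 102 mitosis genes and for 9487 of the 11885 genes tested. The cell cycle homology region occurred in 41.1% of 95 mitosis promoters and in 12.2% of all 12007 promoters, and CCAAT in 65.3% and 34.7%. Both motifs occurred together in 32.6% of mitosis promoters against 4.54% of all. The motifs were not particular to mitosis genes. The 18 histone promoters found held the cell cycle homology region in 44.4%, CCAAT in 88.9% and both in 44.4%, and the 63 promoters of S phase genes in 22.2%, 57.1% and 15.9%. In a window extended to 50 bases after the start, chosen after the first result was seen, the shares with the cell cycle homology region were 68.4% of mitosis and 13.8% of all promoters. These letters also occur by chance, and a match is not a site that was shown to be bound. The promoters of 3 of the 7 mitosis genes that fell, and of a histone gene that fell, are given as examples. They do not show how common the motifs are among the genes that fell. CCAAT (or ATTGG on the other strand), TTTGAA (or TTCAAA) and the histone octamer motif ATTTGCAT are in capitals. The windows run from 100 bases before to 10 bases after the start, read 5′ to 3′ along the gene. They lie at chr9:70421545-70421654 (Ccnb2, minus strand), chr1:189688077-189688186 (Cenpf, minus strand), chr19:37376282-37376391 (Kif11, plus strand) and chr13:23571300-23571409 (H2bc8, plus strand).
Ccnb2: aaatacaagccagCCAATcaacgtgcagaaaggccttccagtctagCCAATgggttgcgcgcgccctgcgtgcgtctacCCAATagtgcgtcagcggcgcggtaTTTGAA
Cenpf: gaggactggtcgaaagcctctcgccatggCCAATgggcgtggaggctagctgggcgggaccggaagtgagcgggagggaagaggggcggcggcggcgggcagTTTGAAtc
Kif11: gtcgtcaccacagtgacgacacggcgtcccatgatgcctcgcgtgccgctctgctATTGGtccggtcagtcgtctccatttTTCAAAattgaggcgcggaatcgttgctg
H2bc8: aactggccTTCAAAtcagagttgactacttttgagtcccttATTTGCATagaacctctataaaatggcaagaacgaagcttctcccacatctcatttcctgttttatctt
The window of Ccnb2 holds 3 CCAAT boxes and ends in TTTGAA, that of Cenpf holds 1 of each, and that of Kif11 holds both on the other strand. TTTGAA begins at base 5 after the start in Ccnb2 and at base 3 in Cenpf. These 2 matches thus lie outside the 250 bases before the start and only inside the extended window. The window of H2bc8 holds no CCAAT box. It has TTCAAA, the first of these motifs on the other strand, and the octamer, a motif known from H2B promoters, which occurred in 33.3% of the histone promoters and in 1.18% of all. The octamer was chosen for the search after the histone values were seen.

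In the group of mitotic kinases, cyclins, phosphatases and checkpoint genes, 2 of 19 genes fell. Ccnb2, which encodes cyclin B2, an activating partner of Cdk1, measured 9.60, 10.12 and 9.78 at P0 and 8.92, 9.13 and 9.35 at P1, a 1.62-fold fall (log2 -0.70, SE 0.11, adjusted p = 0.0215). Cdc25c, the phosphatase that activates Cdk1, measured 8.20, 8.43 and 8.14 and then 7.59, 7.55 and 7.66, a 1.58-fold fall (adjusted p = 0.0203). In both genes every P1 value was below every P0 value. Both lost the call without replicate 1 or 2 of either day, with adjusted p up to 0.169 for Ccnb2 and 0.145 for Cdc25c. The spindle checkpoint kinase gene Bub1b had a difference of -0.63 (adjusted p = 0.0657) and Ccna2, which encodes cyclin A2, a difference of -0.60 (adjusted p = 0.0657). The median of these 19 genes was -0.39.

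The centromere and the kinetochore, which attach chromosomes to the spindle, contributed 25 genes with a median of -0.39, of which 2 fell. Cenpf, a kinetochore protein gene, measured 9.54, 9.61 and 9.39 at P0 and 8.59, 8.54 and 8.90 at P1, a 1.78-fold fall (log2 -0.83, SE 0.13, adjusted p = 0.0215). Cenpe, a kinetochore motor gene, fell 1.66-fold (adjusted p = 0.0408), from 9.52 to 9.87 at P0 down to 8.79 to 9.21 at P1. Both had their smallest difference in pair 3, at -0.48 and -0.31. Knstrn, which encodes a kinetochore and spindle protein and was not in the list, fell 1.82-fold (adjusted p = 0.0215), with 7.73, 8.80 and 8.27 at P0 and 6.93, 7.48 and 7.81 at P1, so its groups overlapped. Each of the 3 lost the call without any library except replicate 3 of P1, with adjusted p up to 0.188 for Cenpf and Knstrn and 0.356 for Cenpe.

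Spindle motors and microtubule proteins formed the group with the most non-overlapping genes, 17 of 22, and had a median of -0.50. All 17 had their P1 values below their P0 values, as had 2.78% of all genes. Kif11, the motor that separates the spindle poles, measured 9.34, 9.44 and 9.06 at P0 and 8.60, 8.36 and 8.65 at P1. It fell 1.68-fold (log2 -0.74, SE 0.13, adjusted p = 0.0272). Kif14, a kinesin of the midbody, fell 1.57-fold (adjusted p = 0.0203), with 8.21, 8.45 and 8.09 at P0 and 7.55, 7.66 and 7.60 at P1, while its second probe set was dim at 4.32 to 4.54 and differed by 0.09. Both lost the call without any library except replicate 3 of P1. Hmmr, which encodes a spindle-associated protein, had the largest difference of the list, -1.02, but varied more between pairs (SE 0.22, adjusted p = 0.104). It was named after its value was seen.

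The chromosomal passenger complex and the machinery of cytokinesis had the lowest group median, -0.61 over 11 genes. All 11 were lower at an unadjusted p under 0.05 (3.29% of all genes were). Birc5, which encodes the passenger protein survivin, fell 1.58-fold (adjusted p = 0.0349) from 9.41, 10.06 and 9.93 to 8.83, 9.33 and 9.25, with differences of -0.57, -0.73 and -0.68 in the pairs. It lost the call without any library except replicate 3 of P1 (adjusted p up to 0.274). Prc1, which bundles microtubules of the central spindle, measured 8.74, 8.85 and 8.46 and then 7.45, 7.67 and 8.21, a difference of -0.91 that did not pass (SE 0.18, adjusted p = 0.0657).

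No gene passed among the partners of the anaphase-promoting complex (median -0.45 over 9 genes), among those of chromosome condensation and cohesion (-0.36 over 11) or among 5 transcription and proliferation markers (0.07). Top2a, the topoisomerase that untangles sister chromosomes, was 11.05 ± 0.17 (SD, n = 3) at P0 and 10.42 ± 0.19 at P1 (adjusted p = 0.0657), and Cks2, a subunit bound to mitotic kinases, 10.17 ± 0.17 and 9.55 ± 0.16 (adjusted p = 0.0539). Mki67, which encodes the proliferation marker Ki-67, measured 9.25, 9.66 and 9.53 and then 8.43, 8.75 and 9.18 (log2 -0.69, adjusted p = 0.0534). The 3 P1 values of each of these genes were below its 3 P0 values, yet none passed. The regulators of mitotic transcription in the list were closer to their P0 level. Foxm1, the forkhead activator of G2 and M phase genes, differed by -0.23, Lin54, the subunit that binds the cell cycle homology region, by 0.20, and Lin9 by 0.08, with adjusted p of 1 for each.

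The genes of DNA replication and S phase did not pass. Of 62 members above the filter on low values, 0 passed in limma and 6 were lower at an unadjusted p under 0.05 (3.29% of all genes were). A difference below 0 was found in 46 of the 62 (50.3% of all genes had one) and above 0 in 16. In all 3 pairs, 15 were lower (12.1% of all genes were) and 0 were higher. The median difference was -0.09, with -0.10, -0.29 and 0.09 in the 3 pairs. Pcna, the sliding clamp of the polymerases, measured 11.66, 11.85 and 11.70 at P0 and 11.65, 11.58 and 11.85 at P1. Mcm6, a subunit of the replicative helicase, averaged 10.28 ± 0.03 (SD, n = 3) and 10.25 ± 0.18. The members with the smallest p were E2f8, a repressor of the E2F family (log2 -0.45, adjusted p = 0.562), Rfc4, a subunit of the clamp loader (-0.35, adjusted p = 0.743), and Gmnn, which encodes the licensing inhibitor geminin (-0.39, adjusted p = 0.75). The cyclins of G1 were likewise near their P0 level, with differences of 0.09 for Ccnd1 and 0.01 for Ccnd2. The difference between the mitosis and the S phase lists was not tested.

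Among the genes of glycolysis, 3 enzymes fell. Above the filter on low values were 14 listed genes, including the glucose transporter Slc2a1 and the lactate transporter Slc16a3. Gapdh, Eno1 and Gpi1 had no probe set with 1 symbol and were not examined. Of the 14, 9 were lower at an unadjusted p under 0.05 (3.29% of all genes were). The median difference was -0.34, with -0.29, -0.38 and -0.36 in the pairs. A difference above 0 was found in 3 of the 14, of which 2 were higher in all 3 pairs. In 1 gene every P1 value was above every P0 value (2.08% of all genes). Pfkl, the liver-type subunit of phosphofructokinase, measured 7.72, 7.85 and 7.91 at P0 and 6.90, 7.13 and 7.31 at P1, a 1.64-fold fall (log2 -0.71, SE 0.10, adjusted p = 0.0203). Aldoa, which encodes aldolase A, measured 10.18, 10.21 and 10.57 and then 9.46, 9.66 and 9.73, a 1.63-fold fall (adjusted p = 0.036). The days did not overlap in either gene. Tpi1, triosephosphate isomerase, fell 1.68-fold (adjusted p = 0.0263) from 9.92, 10.59 and 10.80 to 9.25, 9.78 and 10.04, and because its replicates 1 were low on both days its groups overlapped. None of the 3 passed when any library other than replicate 3 of P1 was left out, while the median of the list stayed between -0.40 and -0.30. Pkm, pyruvate kinase, differed by -0.61 (adjusted p = 0.0823), Pgk1, phosphoglycerate kinase, was 11.70 ± 0.09 (SD, n = 3) and then 11.34 ± 0.07 (adjusted p = 0.346), and Ldha, lactate dehydrogenase A, differed by -0.45 (adjusted p = 0.875). The last 2 were named after their values were seen.

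Of 20 genes known to respond to hypoxia, 2 fell and 8 were lower at an unadjusted p under 0.05 (3.29% of all genes were). In 8, every P1 value was below every P0 value (2.78% of all genes). The list had a median of -0.17. Egln3, the oxygen-sensing prolyl hydroxylase that is itself induced by low oxygen, measured 7.58, 7.55 and 7.09 at P0 and 6.81, 6.65 and 6.56 at P1, a 1.66-fold fall (log2 -0.73, SE 0.12, adjusted p = 0.0215). Ak4, a mitochondrial adenylate kinase, measured 7.79, 7.95 and 8.08 and then 7.19, 7.22 and 7.05, a 1.72-fold fall (adjusted p = 0.0289), and its second probe set differed by -0.75. Egln3 passed without replicate 3 of either day only (adjusted p up to 0.149), and Ak4 lost the call in each of the 6 fits that left out a library (0.0741 to 0.209). P4ha1, a collagen prolyl hydroxylase subunit, was 9.01 ± 0.14 (SD, n = 3) and 8.25 ± 0.12 (adjusted p = 0.104), Bnip3, a mitophagy receptor, 8.99 ± 0.17 and 8.42 ± 0.10 (adjusted p = 0.141), and Pdk1, the kinase that shuts pyruvate out of the mitochondrion, 8.25 ± 0.20 and 7.64 ± 0.21 (adjusted p = 0.259). In these 3 genes, too, every P1 value was below every P0 value, but none passed. The 45 genes of the mitochondrial respiratory chain had a median difference of 0.00 and ranged from -0.17 to 0.17, with 0 passing and 0 at an unadjusted p under 0.05.

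Arrdc3, an arrestin-domain gene that regulates receptor trafficking, had the largest fall outside the histones. It measured 10.13, 10.58 and 9.86 at P0 and 9.62, 8.81 and 8.73 at P1, a 2.20-fold fall (log2 -1.13, SE 0.19, adjusted p = 0.0272). The size ranged from -0.51 in pair 1 to -1.77 in pair 2, and with the first replicates set against the others as the block, in place of the 3 numbers, its adjusted p was 0.0609. It passed without replicate 1 of P0 only among the fits that left out a library (adjusted p up to 0.264). Abi3bp, an extracellular matrix gene, was the gene that rose. It measured 6.51, 6.32 and 6.21 at P0 and 7.52, 7.45 and 7.55 at P1, a 2.24-fold rise (log2 1.16, SE 0.18, adjusted p = 0.0203). Its P1 pools lay close together and above all P0 pools, whose values were below the median of all values on the arrays, 6.86, and the call was lost without any library except replicate 3 of P1 (adjusted p up to 0.145). Cd68, which encodes a lysosomal membrane protein abundant in macrophages, fell 1.61-fold (adjusted p = 0.0215), from 8.15, 8.61 and 8.18 to 7.39, 7.98 and 7.50, with an adjusted p of 0.403 when only the first replicates were set apart as a block and up to 0.161 without single libraries. Of 15 leukocyte markers, 4 were above the filter on low values. Tyrobp differed by 0.08, S100a9 by -0.09 and Cd3e by -0.03, and the macrophage-defining Csf1r, Adgre1 and C1qa were dim, with means of 6.14, 5.29 and 6.53 at P0 and 6.17, 5.22 and 6.68 at P1. The summed level of the leukocyte list, as the mean log2 value of its 15 genes, was 6.15 to 6.48 in the P0 pools and 6.15 to 6.31 in the P1 pools.

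**Figure D3:**
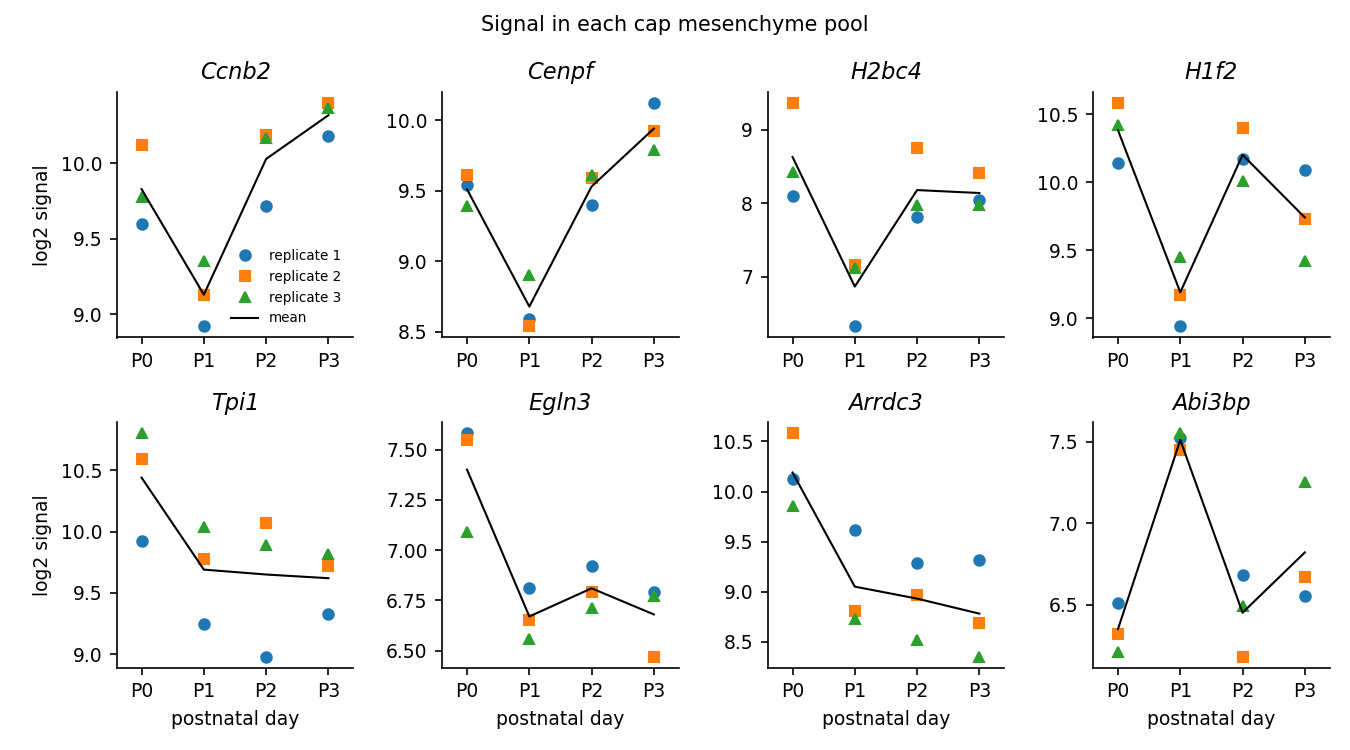
Log2 signal (y axis) of 8 genes in each cap mesenchyme pool from P0 to P3 (x axis), with a symbol for each replicate number and a line through the day means. The mitosis genes Ccnb2 and Cenpf and the histone genes H2bc4 and H1f2 are lowest at P1, Tpi1, Egln3 and Arrdc3 are lower on P1, P2 and P3 than on P0, and Abi3bp is highest at P1.

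The genes that define the sorted cells did not pass. Of 32 progenitor genes above the filter on low values, 0 passed in limma, 0 had an unadjusted p under 0.05, and their differences lay between -0.33 and 0.17 with a median of -0.05. Of the 32, 21 had a difference below 0 (50.3% of all genes had). In all 3 pairs, 13 were lower (12.1% of all genes were) and 3 were higher (1071 of 11885 genes were). Whether this small shift differs from that of other genes was not tested. Cited1, the marker of the uninduced progenitors, measured 8.73, 10.19 and 10.24 at P0 and 8.80, 10.00 and 10.08 at P1. Gdnf, the ligand by which the progenitors stimulate the ureteric bud, was 8.71 ± 0.08 (SD, n = 3) and 8.50 ± 0.08, without overlap but with an adjusted p of 1. Crym had a difference of -0.33 (SE 0.16, adjusted p = 1). Of 21 genes that mark the pretubular aggregate and the renal vesicle, 0 passed in limma, 0 had an unadjusted p under 0.05, and the median was -0.04. Wnt4, the signal that drives progenitors into epithelium, measured 8.28, 7.91 and 8.16 and then 7.97, 8.13 and 8.04, and Lhx1, a transcription factor of the renal vesicle, differed by 0.02. Members of both lists passed on later days. Between P0 and P3, where 6.48% of genes passed, 19 progenitor genes fell and 4 rose with a median of -0.67, and 15 vesicle genes rose with a median of 1.11.

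No other marker of a neighbouring cell type passed. Of the cell types that a sort of cap mesenchyme could include, 18 genes of the stroma, 8 of the podocyte, 8 of the ureteric bud and collecting duct, 7 of the loop of Henle and distal tubule, 6 of the proximal tubule, 3 endothelial and 3 erythroid genes were above the filter on low values, and 0 of these passed in limma. At an unadjusted p under 0.05, 2 of the 18 stromal, 2 of the 8 podocyte and 1 of the 7 distal tubule genes were lower (3.29% of all genes were). Of the 18 stromal genes, 14 had a difference below 0 (50.3% of all genes had) and 4 a difference above 0. In 3 stromal genes every P1 value was below every P0 value (2.78% of all genes), and in 1 every P1 value was above (2.08%). The mean log2 level over the list was 7.99 to 8.0 in the P0 pools and 7.78 to 7.95 in the P1 pools for stroma, 6.43 to 6.81 and 6.57 to 6.62 for the ureteric bud, and 6.52 to 6.67 and 6.55 to 6.61 for endothelium. The stromal genes Pdgfra and Postn had differences of -0.56 (adjusted p = 0.449) and -0.72 (adjusted p = 0.634). The part that a change in stromal cells may have in the results above was not tested.

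The level at P1 was also set against the mean of P0 and P2. A gene can pass this contrast through a difference from 1 of the 2 days alone. Of 11885 genes, 57 passed (0.48%), with 53 lower at P1 (0.446%) and 4 higher (0.0337%). Of the 53, 41 were mitosis genes and 5 histones, while glycolysis and hypoxia genes numbered 0. The median of the mitosis list was -0.50. Taken singly, 7 mitosis genes fell from P0 to P1 and 49 rose from P1 to P2, so the 41 are not all shown to differ from both days. The difference from the mean of the neighbours was -0.80 for Kif14 (adjusted p = 7.2e-04), -1.54 for H2bc4 (3.3e-04) and -1.01 for Prc1 (0.00704). The 4 that were higher were Abi3bp, by 1.11 (adjusted p = 0.00459), Tsga13, by 1.18 (0.0167), Ocm, by 1.12 (0.0194), and Dcx, by 0.55 (0.0443). Ocm measured 7.91, 8.82 and 8.52 at P0 and 8.13, 8.98 and 8.54 at P1 and averaged 6.44 at P2, so its distance from the mean of the neighbours came from P2. The 53 became 5 without replicate 1 of P1, 4 without replicate 2 of P1 and 89 without replicate 3 of P1, and the 4 became 0, 0 and 1. Without the replicate block, 12 were lower and 1 higher.

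P2 and P3 values were set beside those of P1. The comparisons share samples, so only each one's own values are given, and whether a difference lasted was not tested. From P1 to P2, where 0.766% of genes rose, 49 of the 102 mitosis genes and 6 of the 22 histone genes rose, and the mitosis list had a median of 0.60. Over all genes, the 91 that rose from P1 to P2 became 17 without replicate 1 of P1 and 14 without replicate 2 of P1. From P0 to P2, where 0.438% of genes passed, 0 mitosis genes did and their median was 0.16, and from P0 to P3, where 3.0% of genes rose, 35 rose with a median of 0.43. Cenpf averaged 9.51 at P0, 8.68 at P1, 9.53 at P2 and 9.94 at P3, and H2bc4 averaged 8.63, 6.87, 8.18 and 8.14. Of the 21 renal vesicle genes, 7 rose from P0 to P2 (0.151% of all genes did) and 6 from P1 to P2, with medians of 0.32 and 0.43. Among them Lhx1 rose by 1.06 from P0 to P2 (adjusted p = 0.00336) and by 1.04 from P1 to P2 (adjusted p = 0.00275). The glycolysis list had medians of -0.29 from P0 to P2, with 3 genes that fell (0.286% of all genes did), 0.00 from P1 to P2, with 0 that passed, and -0.30 from P0 to P3, with 5 that fell (3.48%). Over all genes, the 34 that fell from P0 to P2 became 13, 7 and 8 without replicates 1, 2 and 3 of P0, and the 18 that rose became 6, 6 and 5, and 10 without replicate 1 of P1. Pfkl averaged 7.83, 7.11, 7.11 and 6.95 on the 4 days, and Egln3 7.40, 6.67, 6.81 and 6.68. Arrdc3 fell by 1.26 on the log2 scale from P0 to P2 (adjusted p = 0.00907) and differed by -1.40 between P0 and P3 (adjusted p = 3.9e-04). Abi3bp fell by 1.06 from P1 to P2 (adjusted p = 0.011) and differed between P0 and P2 by 0.10 (adjusted p = 0.921).

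**Figure D4:**
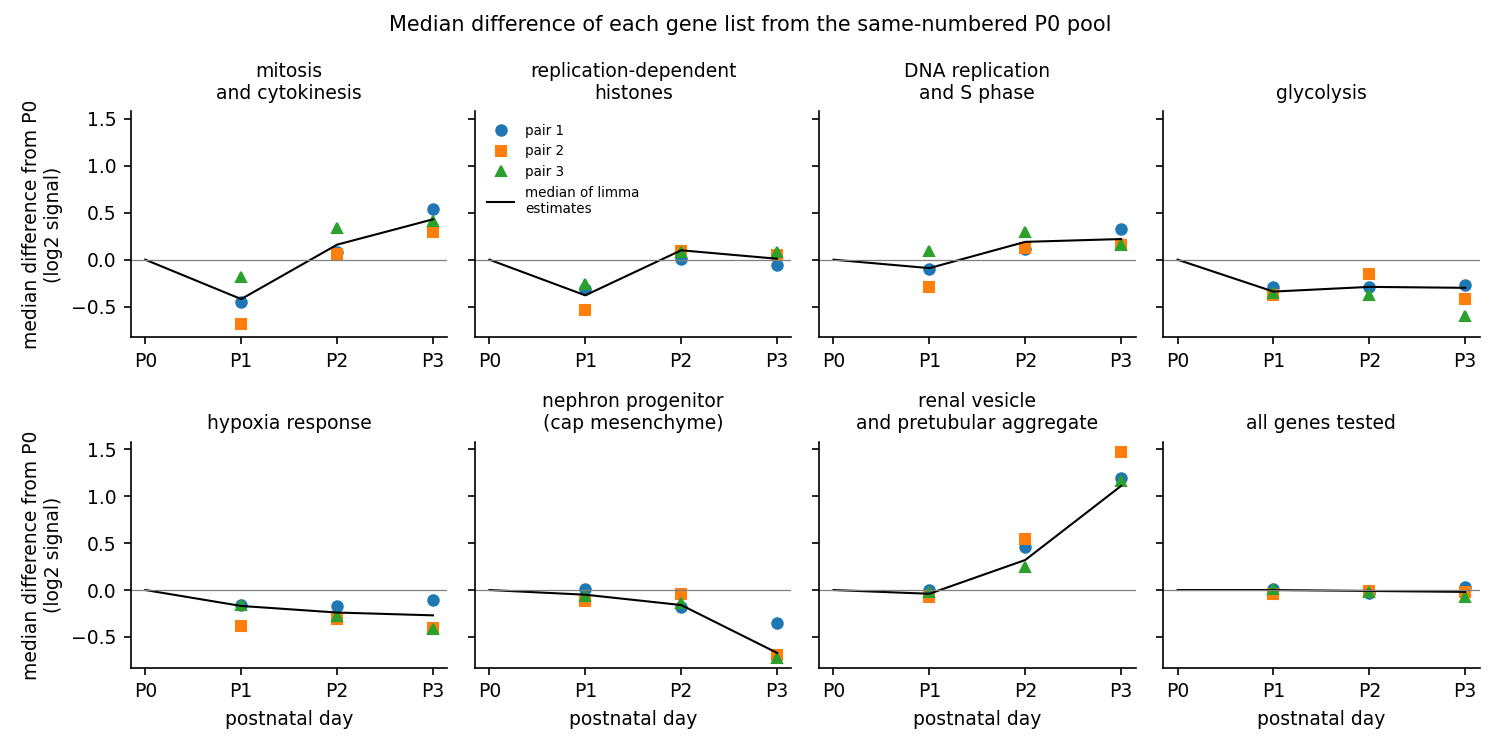
Median difference in log2 signal from P0 (y axis) of 7 gene lists and of all genes on P1, P2 and P3 (x axis), with a symbol for each same-numbered pair of pools and a line through the medians of the limma estimates. The median of mitosis genes is lowest at P1 (-0.42) and above 0 at P3 (0.43), and that of glycolysis genes is below 0 on P1, P2 and P3. The renal vesicle list lies above P0 at P2 (0.32) and further at P3 (1.11), and the progenitor list is lowest at P3 (-0.67). All days are set against the same P0 pools.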

How the data were processed

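Per the labels, RNA of the 15 sorted pools (3 for each of P0 to P4) went through 1 round of WT-Ovation Pico amplification and biotin labelling before hybridisation to whole-transcript arrays. The authors deposited log2 signals of 35557 probe sets. The submitters' processing notes name Affymetrix Expression Console. Summarization and background correction were not given in the sources used, so folds of dim genes may be understated, which was not tested. Values were used as deposited. Precision is limited by the 3 arrays of each day.

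Of the probe sets, 21789 had 1 gene symbol in the platform annotation, 1621 had several and 12147 were not listed. The probe set with the highest mean stood for each of 19938 genes (999 had several), and the 11885 genes that exceeded log2 6.86, the overall median, in 3 or more samples were tested. Day means and a block for the replicate number of the title (1 where the title has none) were fitted to all 15 samples with limma 3.58.1 in R 4.3.3, with eBayes, two-sided tests and Benjamini-Hochberg adjustment at 0.05. Samples were treated as paired by number. Deviations from the day means of samples with the same number correlated by 0.793, 0.138 and 0.139 between P0 and P1, and by 0.138 or more in all pairs of days from P0 to P3. Correlations between samples with unlike numbers were not computed. Deviations within a day cancel out, so a difference of replicates 1 alone can make replicates 2 and 3 correlate. These values therefore cannot show that replicates 2 and 3 are matched by number. With only the first replicates set apart as a block, 16 of the 20 genes called between P0 and P1 passed. Folds are 2 to the power of the log2 difference. P1 minus P0 was the main contrast. P1 minus the mean of P0 and P2, P2 minus P0, P2 minus P1 and P3 minus P0 were set beside it.

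The comparison, the 42 gene lists and the tests were chosen with earlier results of these data known, and no list was tested as a set. Named are Crym, Six2, Cited1, Gdnf and Wnt4, the 12 largest rises and falls that passed, and up to 4 members of each list (or of each role in the mitosis and S phase lists) with the smallest p, at most 2 where none passed. Hmmr, Pcna, Mcm6, Ccnd1, Ccnd2, Pgk1, Ldha, Pdk1, Lhx1, Xist, Tsga13, Ocm, Dcx and the dim markers of other cells were named after their values were seen. The fit was also run on simulated data with independent noise and a replicate block built in. That run cannot show whether samples are matched by number or how calls depend on single libraries. Alternatives were other blocks, samples, filters, normalizations, gene summaries and variance models, and leaving out each sample of P0 and P1.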

Additional observations from a re-analysis of the deposited data

How the results depend on the processing

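Counts are given as genes higher and lower at P1 than at P0, 1 and 19 as reported. Without the replicate block, which ignores the pairing of samples by number, they were 0 and 0. They were 0 and 2 with the samples of P0 to P3, 1 and 2 with those of P0 and P1, 0 and 1 with replicates 2 and 3, 0 and 22 among genes above the median in all samples, 1 and 40 with quantile normalization, and 511 and 658 with array weights, where the weights ran from 0.20 to 5.82 and replicate 1 of P1 had the highest. Leave-one-out counts ran from 0 to 1 and from 1 to 49.

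Against the mean of P0 and P2, the counts of 4 and 53 became 1 and 12 with no replicate block, 0 and 0 with replicates 2 and 3, and 442 and 579 with array weights. The higher count was 1 among genes above the median in all samples and 7 with an intensity trend and robust moderation. Leave-one-out counts ran from 0 to 6 and from 4 to 89. This contrast could not be fitted to P0 and P1 alone.

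From P0 to P2, 18 rose and 34 fell, against 1 and 3 with no replicate block, 2 and 5 with replicates 2 and 3, and 128 and 161 with array weights. With the samples of P0 to P3, 11 rose, and among genes above the median in all samples 21 fell. Leave-one-out counts ran from 5 to 18 and from 7 to 36. From P1 to P2, 91 rose and 23 fell, against 7 and 3 with no replicate block, 0 and 1 with replicates 2 and 3, and 353 and 229 with array weights. With quantile normalization 147 rose. In the other direction, 15 fell among genes above the median in all samples and 14 with median centring. Leave-one-out counts ran from 14 to 131 and from 6 to 19.

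Mitosis, histone, glycolysis and hypoxia members lower at P1 were 7, 4, 3 and 2. They were 0, 0, 0 and 0 with no replicate block, 0, 2, 0 and 0 with P0 to P3 and also with P0 and P1 alone, 0, 1, 0 and 0 with replicates 2 and 3, and 66, 10, 8 and 7 with array weights. Among genes above the median in all samples, 14 mitosis, 2 histone and 1 hypoxia genes were lower. Mitosis members were 24 with quantile normalization, 4 with median centring and 12 with the trend, and hypoxia members 1 with the mean of probe sets. Leave-one-out counts ran from 0 to 29, 1 to 4, 0 to 3 and 0 to 2. The list medians kept their sign in all these fits, with leave-one-out ranges of -0.52 to -0.34, -0.51 to -0.29, -0.40 to -0.30 and -0.24 to -0.17. That of glycolysis was -0.41 with replicates 2 and 3. The difference of Xist, which follows the sex of the pools, went from -0.02 to 3.51 with array weights. The causes were not tested.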

Other observations

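Of the 42 lists, 37 had no member that passed between P0 and P1, and their medians lay between -0.18 and 0.11. The lowest was that of 25 immediate-early genes, with -0.14, 0.04 and -0.42 in the 3 pairs. Of the 25, 21 had a difference below 0 (50.3% of all genes had) and 4 a difference above 0. In all 3 pairs, 8 were lower (12.1% of all genes were) and 0 were higher. At an unadjusted p under 0.05, 3 were lower (3.29% of all genes were). Ccn1, a matricellular gene of serum and YAP responses, measured 8.92, 9.20 and 9.51 at P0 and 8.22, 8.73 and 8.53 at P1 (log2 -0.72, adjusted p = 0.562), and Egr2, a zinc finger gene, differed by -0.51 (adjusted p = 0.602). Of 21 genes of FGF signalling, 2 were lower at an unadjusted p under 0.05 (3.29% of all genes were). They were the feedback inhibitors Dusp6 (log2 -0.43, adjusted p = 0.542) and Spry4 (log2 -0.31, adjusted p = 0.997).

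Among metabolic and hormone genes that did not pass, Cpt1a, which brings fatty acids into the mitochondrion, was 7.65 ± 0.30 (SD, n = 3) at P0 and 8.16 ± 0.21 at P1 (adjusted p = 0.497), and Txnip, an inhibitor of glucose uptake, was 10.23 ± 0.30 and 9.83 ± 0.06 (adjusted p = 0.769). The glucocorticoid target Errfi1 measured 8.09, 8.60 and 8.09 and then 7.73, 7.98 and 7.69 (log2 -0.46, adjusted p = 0.156). The retinoic acid genes Dhrs3 and Crabp2 moved apart, with values of 9.53, 9.77 and 9.68 and then 10.00, 10.16 and 10.08 for Dhrs3 (adjusted p = 0.905), and 11.13, 10.98 and 10.91 and then 10.32, 10.37 and 10.34 for Crabp2 (log2 -0.66, SE 0.36, adjusted p = 1). In both genes the P0 and P1 pools did not overlap, although neither passed. The 54 genes of cytoplasmic ribosomal proteins had a median of 0.00 and ranged from -0.31 to 0.13.

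Prelid2, which encodes a mitochondrial protein of the PRELI family, was named after its values were seen. It measured 8.11, 8.46 and 8.15 at P0 and 7.34, 7.58 and 7.97 at P1 (log2 -0.61, adjusted p = 0.0835), and it fell by 1.07 from P0 to P2 (adjusted p = 0.00182).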
